A study of Mus musculus with 6 samples.

Results

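The transcripts of 9 regulators of coagulation and fibrinolysis were followed in the pancreas of mice with acute pancreatitis (AP). The genes are Procr, Thbd, F3, Tfpi, F2r, F2rl1, Plau, Plaur and Plat, which belong to the tissue factor, protein C and plasminogen systems. They were picked by symbol, and each of the 9 symbols belonged to a single Ensembl identifier among the 22556 identifiers measured in every library. The choice was made with the levels of these genes in these same mice already known, so the differences between groups are given below as a description, with their standard errors, and are not evidence that the pathway as such responded. Total RNA came from whole pancreas of wild-type C57BL/6 mice aged 8 weeks by the labels, with 2 mice in each of 3 groups. Saline mice received saline. AP mice received caerulein, a peptide that stimulates the cholecystokinin receptor of acinar cells, 10 times at hourly intervals at 200 μg/kg. Mice of the polyI:C AP group received polyI:C, a synthetic double-stranded RNA that activates Toll-like receptor 3, at 10 mg/kg before the same course of caerulein. By the study's methods, mice were fasted before induction, and saline was injected in place of polyI:C as the control. Tissue was collected 24 h from the start of caerulein. The 6 mice included none given polyI:C alone, so an effect of polyI:C without pancreatitis cannot be told apart from its effect on pancreatitis.

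Coagulation starts when tissue factor (F3), a membrane protein outside the bloodstream, binds factor VIIa, a complex that is held in check by tissue factor pathway inhibitor (Tfpi). Thrombin formed downstream cleaves fibrinogen and also signals to cells through protease-activated receptors. When thrombin binds thrombomodulin (Thbd) it activates protein C instead, a step helped by the endothelial protein C receptor (Procr), and activated protein C then shuts the cascade down. Fibrin is removed by plasmin, which tissue-type (Plat) and urokinase-type (Plau) plasminogen activators release from plasminogen, the latter at the cell surface on its receptor (Plaur). In the pancreas, the receptor encoded by F2rl1 is also known as a sensor of trypsin.

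Levels are in TPM, a unit that scales reads to transcript length and to a fixed library total. With that total fixed, a change in very abundant genes also moves the values of other genes between mice. The spacing of low values placed the libraries at about 3312316 to 3960197 reads in the saline mice, 6900168 to 8836146 in the AP mice and 8818375 to 10826193 in the polyI:C AP mice, so the lowest genes were measured least precisely in the saline mice. Differences were fitted with limma on log2(TPM + 0.5) over the 16814 genes that averaged 1 TPM or more. Calls by limma needed a change of at least 2-fold and a Benjamini-Hochberg adjusted p, over all these genes, no higher than 0.05. The added 0.5 makes the fold change of a low gene smaller than the ratio of its TPM values. Compared with saline mice, the median gene was higher by 0.45 on the log2 scale in AP mice and by 0.49 in polyI:C AP mice, and this shift fell to 0.05 in both comparisons under median-of-ratios scaling. It was 0.04 between polyI:C AP and AP mice. The labels give nothing on whether mice with the same replicate number were handled together, nor on litters or cages.

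All 9 genes reached the mean of 1 TPM. In AP mice, each of the 9 was higher in both mice than in both saline mice, an arrangement that 52.6% of all tested genes also showed, while 16.4% showed the reverse. Of the 9, 6 were called raised and none reduced, beside 18.2% and 4.03% of all tested genes, or 22.2% called in either direction. Those 6 were Procr, Plat, Plaur, F2rl1, Plau and Tfpi. Their log2 fold changes ran with those of the other 3 genes from 0.60 (Thbd) to 5.16 (Procr), with a median of 1.59, and each of the 9 lay above the median gene of the tissue. In polyI:C AP mice compared with AP mice, 2 of the 9 were called reduced, Plau and Procr, beside 0.404% of all tested genes, and none was called raised, beside 0.44% (0.845% in either direction). In 7 of the 9, both polyI:C AP mice were below both AP mice, an arrangement found in 22.1% of all tested genes, with 27.7% showing the reverse. Compared with saline mice, 3 of the 9 (Procr, Plat and F2rl1) were still called raised in polyI:C AP mice, beside 16.9% of all tested genes (19.9% called in either direction). In 6 of the 9, both polyI:C AP mice were above both saline mice, as in 54.4% of all tested genes, and in none below, as in 14%. The comparisons share the AP mice or the saline mice and are not independent of each other. Because these contrasts were in view when the genes were chosen, nothing is read from the distance between the members' counts and these percentages.

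**Figure D1:**
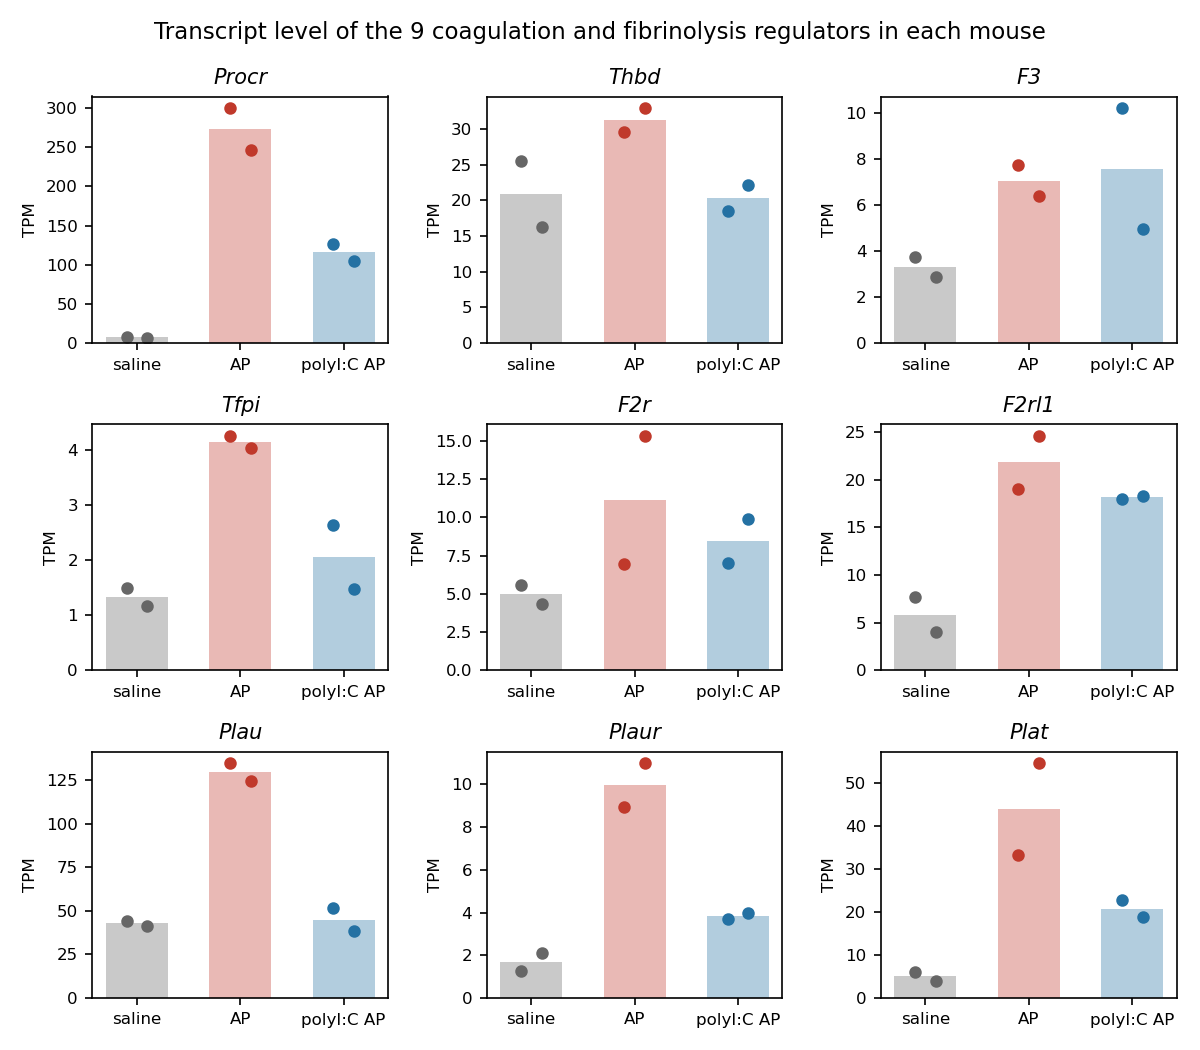
Transcript level in TPM (y axis, from 0, with its own range in each panel) of each of the 9 genes in saline, AP and polyI:C AP mice. Points are single mice and bars are the means of 2 mice. In every panel both AP mice lie above both saline mice, and Procr has the widest gap, from 7.10 TPM in saline mice to 273 TPM in AP mice.

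**Figure D2:**
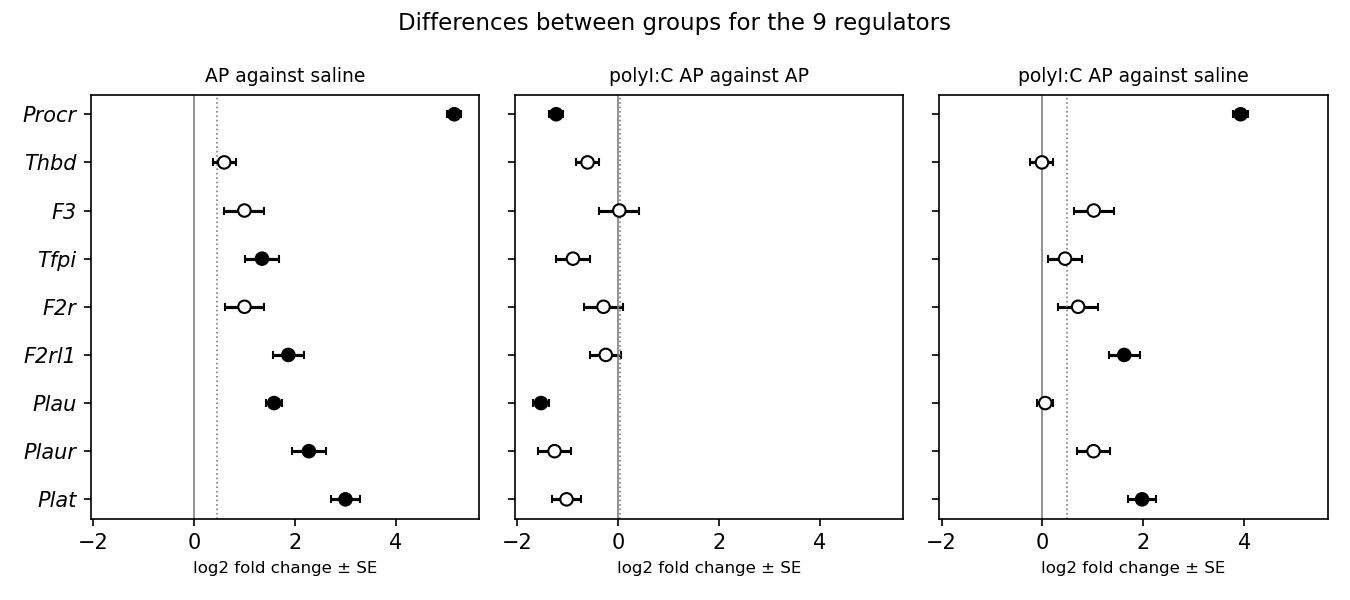
Log2 fold change with its standard error (x axis) for each gene in the 3 comparisons. Filled points are called, open points are not, the solid line marks no difference and the dotted line the median of all tested genes. Procr stands farthest to the right in both comparisons with saline mice, and F3 lies at the zero line between polyI:C AP and AP mice.

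Promoter windows from RefSeq (build GRCm38.p6, 250 bases before to 50 after the annotated start) were on hand for 5 of the 9 genes, Procr, F3, Tfpi, F2r and Plaur, with 2 windows for Tfpi. They are given as a description of sequence. The AP-1 motif TGANTCA, the element bound by Jun and Fos proteins, was found in the windows of Procr, F3, F2r and Plaur, in 4 of 6 windows, while 7.8% of the 32851 windows of all genes held it. It began 154 bases before the start of Procr, 146 and 135 bases before that of F3, 204 bases before that of F2r and 69 bases before that of Plaur. No window held the interferon-stimulated response element (3.4% of all windows), the GAS element TTCNNNGAA (8.3%) or the NF-kB motif (4.5%), searched like the others on both strands. The GC box GGGCGG was in 5 of 6 windows (35.7% of all), the TATA box TATAAA in 2 (13.6%) and the E-box CACGTG in 1 (7.2%). No match overlapped an AP-1 match. These matches are letters in a window and do not show binding. Of the genes with an AP-1 match, Procr and Plaur were called raised in AP, and F3 and F2r were not. Tfpi was called raised and had no AP-1 match in either window. The part of any motif in the levels of these genes was not tested. The 4 windows with an AP-1 motif, 5′ to 3′ along the gene's strand and with that motif in capitals, are
Procr, chr2:155750967-155751266, plus strand: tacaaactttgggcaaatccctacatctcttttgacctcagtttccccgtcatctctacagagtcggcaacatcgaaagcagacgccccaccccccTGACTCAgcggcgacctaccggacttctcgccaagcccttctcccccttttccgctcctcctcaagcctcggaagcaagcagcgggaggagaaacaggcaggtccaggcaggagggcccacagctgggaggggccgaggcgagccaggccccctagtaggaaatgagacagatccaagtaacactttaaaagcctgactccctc
F3, chr3:121723287-121723586, plus strand: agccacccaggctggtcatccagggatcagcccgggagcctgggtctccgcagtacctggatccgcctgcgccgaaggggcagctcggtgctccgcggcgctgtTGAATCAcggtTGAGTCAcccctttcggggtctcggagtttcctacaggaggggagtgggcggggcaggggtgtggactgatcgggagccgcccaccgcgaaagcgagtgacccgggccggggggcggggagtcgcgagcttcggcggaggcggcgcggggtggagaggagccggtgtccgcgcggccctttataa
F2r, chr13:95618417-95618716, minus strand: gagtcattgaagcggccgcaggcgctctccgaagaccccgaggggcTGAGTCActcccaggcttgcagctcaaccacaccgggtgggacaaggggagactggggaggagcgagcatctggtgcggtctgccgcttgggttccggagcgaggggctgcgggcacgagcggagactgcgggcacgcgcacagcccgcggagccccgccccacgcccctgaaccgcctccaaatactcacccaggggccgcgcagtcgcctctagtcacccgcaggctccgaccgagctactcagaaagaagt
Plaur, chr7:24462233-24462532, plus strand: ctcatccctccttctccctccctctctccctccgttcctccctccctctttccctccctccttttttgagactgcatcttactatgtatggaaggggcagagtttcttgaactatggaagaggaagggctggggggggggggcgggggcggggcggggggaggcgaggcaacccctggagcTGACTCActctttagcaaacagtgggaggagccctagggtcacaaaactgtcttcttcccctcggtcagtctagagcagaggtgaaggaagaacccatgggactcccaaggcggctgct

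Procr carried the largest difference of the 9 genes. It encodes the endothelial protein C receptor, a membrane protein related to the CD1 and MHC class I family (ENSMUSG00000027611, chromosome 2 of GRCm38, 155751117 to 155755471, plus strand). Its level was 7.31 and 6.90 TPM with saline, 299.8 and 246 TPM in AP and 127 and 105 TPM in polyI:C AP. The 3 groups did not overlap, and the polyI:C AP mice lay between the others. The saline values rest on about 22 and 17 reads, against 1295 and 1348 in the AP mice. The standard errors use a single variance per gene for all 3 groups, so they understate the larger counting noise of the saline mice. The log2 fold change was 5.16 (standard error 0.14) in AP against saline mice, 4.71 above the median gene, and -1.23 (standard error 0.14) with polyI:C against AP, a 2.35-fold lower level. Against saline mice the polyI:C AP mice remained 15.2-fold higher on this scale, a log2 fold change of 3.93. The rise in AP was called in every alternative fit. The polyI:C call was lost without saline replicate 2 (log2 fold change -1.23), AP replicate 1 (-1.09) or 2 (-1.37), or polyI:C AP replicate 1 (-1.36) or 2 (-1.10), with either other prior variance, and when only these groups were fitted.

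The primer pair designed for quantitative PCR of Procr is shown to place that assay on the gene
Procr forward: aatgcctacaaccggactcg
Procr reverse: accagtgatgtgtaagagcga
The pair matched the 4-exon transcript of GENCODE M21 without a mismatch and spans 131 bases of it, from exon 3 to exon 4 (chromosome 2, 155754431 to 155754802). A 3-exon transcript that keeps the intervening sequence would give 372 bases. None of the stretches of 100 bases in Procr transcripts, nor in those of the other 8 genes, occurs in transcripts of another gene, and no other annotated gene overlaps any of the 9, so their reads could be told apart from those of paralogs and neighbours.

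Thbd, the gene of thrombomodulin, which has a single exon (ENSMUSG00000074743, chromosome 2, 148404466 to 148408188, minus strand), differed least of the 9 genes in AP. It was at 25.6 and 16.3 TPM with saline, 29.5 and 32.9 TPM in AP and 18.5 and 22.2 TPM in polyI:C AP. The saline and polyI:C AP mice overlapped, and the AP mice lay above both. The log2 fold changes were 0.60 (standard error 0.23) in AP, 0.15 above the median gene, and -0.61 (standard error 0.23) with polyI:C against AP, and neither was called. Thbd was the second most abundant of the 9 transcripts in saline mice (20.9 ± 6.56 TPM, SD, n = 2) and Procr the third (7.10 ± 0.291 TPM), and both saline mice kept Thbd above Procr. In AP mice the order was turned, with Procr at 273 ± 38.1 TPM and Thbd at 31.2 ± 2.38 TPM, and in polyI:C AP mice Procr still stood at 116 ± 15.1 TPM against 20.4 ± 2.55 TPM for Thbd.

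The gene of tissue factor, F3, was low in every mouse. It lies on chromosome 3 (ENSMUSG00000028128, 121723537 to 121735048, plus strand) and was at 3.73 and 2.86 TPM with saline, 7.74 and 6.37 TPM in AP and 10.2 and 4.95 TPM in polyI:C AP. All 4 caerulein-treated mice were above the saline mice, and the polyI:C AP mice spread to both sides of the AP mice. F3 differed by 1.00 on the log2 scale (standard error 0.40) in AP and by 0.02 (standard error 0.40) with polyI:C against AP. Neither was called, and the sign of the latter turned negative under 4 of the other fits. Its inhibitor Tfpi, which blocks the tissue factor and factor VIIa complex (ENSMUSG00000027082, chromosome 2, 84432855 to 84476775, minus strand), had the lowest mean of the 9 genes in each group. It was at 1.50 and 1.16 TPM with saline, 4.26 and 4.03 TPM in AP and 2.64 and 1.48 TPM in polyI:C AP. The AP mice stood above all others, and the polyI:C AP mice overlapped the saline mice. In AP the log2 fold change of 1.35 (standard error 0.34) was called, and that of -0.90 with polyI:C against AP (standard error 0.34) was not. With about 12 and 8 reads in the saline mice, the call in AP was lost without saline replicate 2 (log2 fold change 1.21), AP replicate 1 (1.31) or AP replicate 2 (1.38), and under median-of-ratios scaling (1.01).

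The receptors through which coagulation proteases signal differed from each other. F2rl1 encodes protease-activated receptor 2, which is opened by trypsin, tryptase and the tissue factor and factor VIIa complex (ENSMUSG00000021678, chromosome 13, 95511732 to 95525227, minus strand). Its level was 7.71 and 3.98 TPM with saline, 19.0 and 24.6 TPM in AP and 18.0 and 18.3 TPM in polyI:C AP. All caerulein-treated mice were well above the saline mice, whether or not they had received polyI:C. The log2 fold change was 1.87 in AP and 1.62 in polyI:C AP against saline mice, each with a standard error of 0.31 and called, and -0.25 (standard error 0.31) between the treated groups, not called. The call in AP was lost without AP replicate 2 (log2 fold change 1.69), and that in polyI:C AP without its replicate 1 (1.63) or 2 (1.61).

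F2r, the gene of the thrombin receptor protease-activated receptor 1 (ENSMUSG00000048376, chromosome 13, 95601803 to 95618487, minus strand), measured 5.59 and 4.33 TPM with saline, 6.93 and 15.3 TPM in AP and 7.04 and 9.90 TPM in polyI:C AP. The AP mice differed from each other more than either differed from the polyI:C AP mice, whose values lay between them. For F2r the log2 fold change was 1.00 (standard error 0.40) in AP and -0.29 (standard error 0.40) with polyI:C against AP, neither called. Without AP replicate 1, the log2 difference from saline mice was 1.55 and called, and without AP replicate 2 it was 0.46 and the difference between polyI:C AP and AP mice turned to 0.25. AP replicate 2 also stood apart in the 6 mesothelial markers, whose summed level was 119 TPM there, 43.0 TPM in AP replicate 1 and 44.1 to 77.8 TPM in the other 4 mice, and in the 6 lymphocyte markers, with 43.4 TPM against 2.65 to 15.6 TPM in the other 5 mice. The part of these cells in the F2r value was not tested.

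F2r and F2rl1 lie beside a further receptor gene, F2rl2 (protease-activated receptor 3), within 191 kb of chromosome 13, 76.6 and 78.4 kb apart, with F2rl2 inside Iqgap2 on the opposite strand. F2rl2, which was not among the 9 genes, went the other way. It was at 7.94 and 7.41 TPM with saline, 3.93 and 3.25 TPM in AP and 4.27 and 4.0 TPM in polyI:C AP, and fell by 1.00 on the log2 scale in AP (adjusted p = 0.036 from limma). Both groups of caerulein-treated mice lay below the saline mice. The fold change was at the limit of 2, and the call was lost whichever of the 6 mice was left out (adjusted p of 0.052 to 0.15). F2rl3, which encodes the fourth receptor of the family, stayed between 0 and 0.78 TPM and was not tested.

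The plasminogen system held the most abundant of the 9 genes in saline pancreas. Plau, the urokinase-type activator (ENSMUSG00000021822, chromosome 14, 20836660 to 20843385, plus strand), measured 44.1 and 41.3 TPM with saline, 135 and 124 TPM in AP and 51.6 and 38.2 TPM in polyI:C AP. The AP mice stood alone, and the polyI:C AP mice lay on both sides of the saline mice. The log2 fold change was 1.59 (standard error 0.16) in AP, -1.53 (standard error 0.16) with polyI:C against AP, and 0.06 (standard error 0.16) against saline mice. The rise in AP was called in every alternative fit. The polyI:C call was lost without saline replicate 2 (log2 fold change -1.53), AP replicate 1 (-1.48) or 2 (-1.59) or polyI:C AP replicate 2 (-1.32), with either other prior variance, and when only these groups were fitted.

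Plaur, the urokinase receptor (ENSMUSG00000046223, chromosome 7, 24462484 to 24475968, plus strand), measured 1.26 and 2.12 TPM with saline, 8.96 and 11 TPM in AP and 3.71 and 3.97 TPM in polyI:C AP. The 3 groups did not overlap, and about 5 and 7 reads lie behind the saline values. As for Procr, the shared variance understates the counting noise of the saline mice. For Plaur the log2 fold change was 2.28 (standard error 0.33) in AP and called, and -1.26 (standard error 0.33) with polyI:C against AP and not called. In polyI:C AP against saline mice it was 1.01 (standard error 0.33), not called. Plaur was called there under the filter of 5 TPM, with one prior for all genes, and without saline replicate 2 (1.30). Plat, the tissue-type activator (ENSMUSG00000031538, chromosome 8, 22757727 to 22782844, plus strand), measured 6.11 and 3.87 TPM with saline, 33.2 and 54.5 TPM in AP and 22.6 and 18.8 TPM in polyI:C AP. The 3 groups again did not overlap, although the AP mice differed widely. The log2 fold change of 3.0 in AP (standard error 0.28) was the second largest of the 9 genes and was called, that with polyI:C against AP was -1.03 (standard error 0.28) and not called, and that in polyI:C AP against saline mice was 1.98 (standard error 0.28) and called. Without polyI:C AP replicate 1 the last of these was 1.84 and not called.

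The order of the levels differed between groups. In saline mice Plau (42.7 ± 1.98 TPM, SD, n = 2) came first and Thbd second, each with both mice above the next gene, and Procr, F2rl1, Plat and F2r followed at 7.10 to 4.96 TPM without such a gap between neighbours. Plaur and Tfpi were last and overlapped. In AP mice Procr came first, then Plau (129 ± 7.30 TPM), Plat (43.8 ± 15.1 TPM), Thbd and F2rl1 (21.8 ± 3.93 TPM), each with both mice above the next gene. F2r and Plaur overlapped, and F3 and Tfpi were lowest. In polyI:C AP mice the first 5 genes kept these places, and Plat (20.7 ± 2.72 TPM) and Thbd no longer differed beyond their spread.

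The other genes of the pathway were taken from lists of 43 genes with known roles, of which 38 were measured and 25 reached 1 TPM. Of these 25, 7 rose and 5 fell in AP against saline mice, beside 18.2% and 4.03% of all tested genes, with a median log2 fold change of 0.36 against 0.45 over all genes. With polyI:C against AP, none rose and 1 fell, beside 0.44% and 0.404% of all tested genes, with a median of -0.08 against 0.04. In polyI:C AP against saline mice, 6 rose and 4 fell, beside 16.9% and 2.97% of all tested genes.

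Among 13 measured clotting factor and fibrinogen genes, 7 were tested and 1 passed. F13a1, the catalytic subunit of factor XIII, which cross-links fibrin and is made by macrophages, was at 50.6 and 28.7 TPM with saline, 148 and 155 TPM in AP and 14.3 and 12.5 TPM in polyI:C AP. The groups did not overlap, and the polyI:C AP mice were below the saline mice. It rose by 1.98 in AP (adjusted p = 0.0011 from limma), and was reduced by polyI:C against AP (log2 fold change -3.45, adjusted p = 0.0037) and against saline mice (-1.48, adjusted p = 0.0037). The fall against AP was not called when any of the AP or polyI:C AP mice was left out, with log2 fold changes of -3.55 to -3.36 and adjusted p of 0.096 to 0.29, nor that against saline mice without polyI:C AP replicate 1 (-1.57, adjusted p = 0.058). The fibrinogen genes Fga, Fgb and Fgg, which are liver products, were listed between 0 and 0.93 TPM.

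Of 9 anticoagulant genes, 7 were tested. Pros1, the gene of protein S, the cofactor of activated protein C, rose from 14.0 and 10.5 TPM in the saline mice to 47.8 and 52.2 TPM in the AP mice and was at 43.0 and 34.3 TPM in the polyI:C AP mice (log2 fold change 2.00 in AP, adjusted p = 0.00036 from limma). Anxa5, the gene of the phosphatidylserine-binding annexin A5, rose by 1.50 (adjusted p = 0.00020), from 135 and 114 TPM to 343 and 360 TPM, and was at 303 and 281 TPM with polyI:C. For both, all caerulein-treated mice were above the saline mice, and both rises were also called in polyI:C AP against saline mice (1.62, adjusted p = 0.00083, and 1.23, adjusted p = 0.00042). Between polyI:C AP and AP mice their log2 fold changes were -0.38 (standard error 0.18) and -0.27 (standard error 0.11), not called. The Anxa5 call in polyI:C AP against saline mice was lost under median-of-ratios scaling (0.77, below 2-fold) and under scaling without the genes above 1% of any library (0.98). Serpind1, the gene of heparin cofactor II, fell by 1.41 in AP (adjusted p = 0.039), a call lost whichever mouse was left out (adjusted p of 0.055 to 0.17). Serpina10, the gene of the protein Z-dependent protease inhibitor, was raised in polyI:C AP against saline mice (1.54, adjusted p = 0.045), and was not called under most alternatives, among them those without saline replicate 2, either AP mouse or either polyI:C AP mouse (0.90 to 2.07). Proc, the gene of protein C itself, was between 2.13 and 6.00 TPM and did not pass in any comparison.

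Of 9 measured genes for plasminogen inhibitors and binding proteins, 6 were tested, 4 rose and 1 fell in AP. Anxa2 and S100a10, whose products form the cell-surface complex that binds plasminogen and Plat, had the largest rises. Anxa2 went from 29.1 and 25.9 TPM in the saline mice to 346 and 442 TPM in AP and 394 and 347 TPM in polyI:C AP (log2 fold change 3.81 in AP, adjusted p = 2.4e-05 from limma). S100a10 went from 38.0 and 30.7 TPM to 181 and 237 TPM in AP and 136 and 196 TPM in polyI:C AP (2.58, adjusted p = 0.00031). In both genes the AP and polyI:C AP mice overlapped, and the log2 fold changes between these groups were -0.08 (standard error 0.14) and -0.34 (standard error 0.22). Plgrkt, the gene of a plasminogen receptor, rose in AP (1.57, adjusted p = 0.00048) and in polyI:C AP mice (2.02, adjusted p = 0.00023 against saline mice). Vtn, the gene of vitronectin, an adhesive plasma glycoprotein that binds the urokinase receptor, was highest in saline mice, at 160 and 182 TPM, and was reduced to 33.1 and 22.7 TPM in AP (log2 fold change -2.61, adjusted p = 0.00039) and 27.1 and 40.1 TPM with polyI:C (-2.35 against saline mice, adjusted p = 0.00065).

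Among 4 tested genes for the gamma-carboxylation and export of clotting factors, Lman1 and Mcfd2, which form the cargo receptor for factors V and VIII between endoplasmic reticulum and Golgi, fell in AP by 1.33 (adjusted p = 0.00012 from limma) and 1.14 (adjusted p = 0.00077). Both were also reduced in polyI:C AP against saline mice (-1.08 and -1.65, adjusted p = 0.00027 and 0.00023), and their log2 fold changes with polyI:C against AP were 0.26 (standard error 0.09) and -0.52 (standard error 0.13), not called. Without saline replicate 2, Mcfd2 fell by 0.96 on the log2 scale in AP, which is below 2-fold. Mcfd2 was at 584 and 742 TPM with saline, 290 and 309 TPM in AP and 207 and 212 TPM in polyI:C AP.

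**Figure D3:**
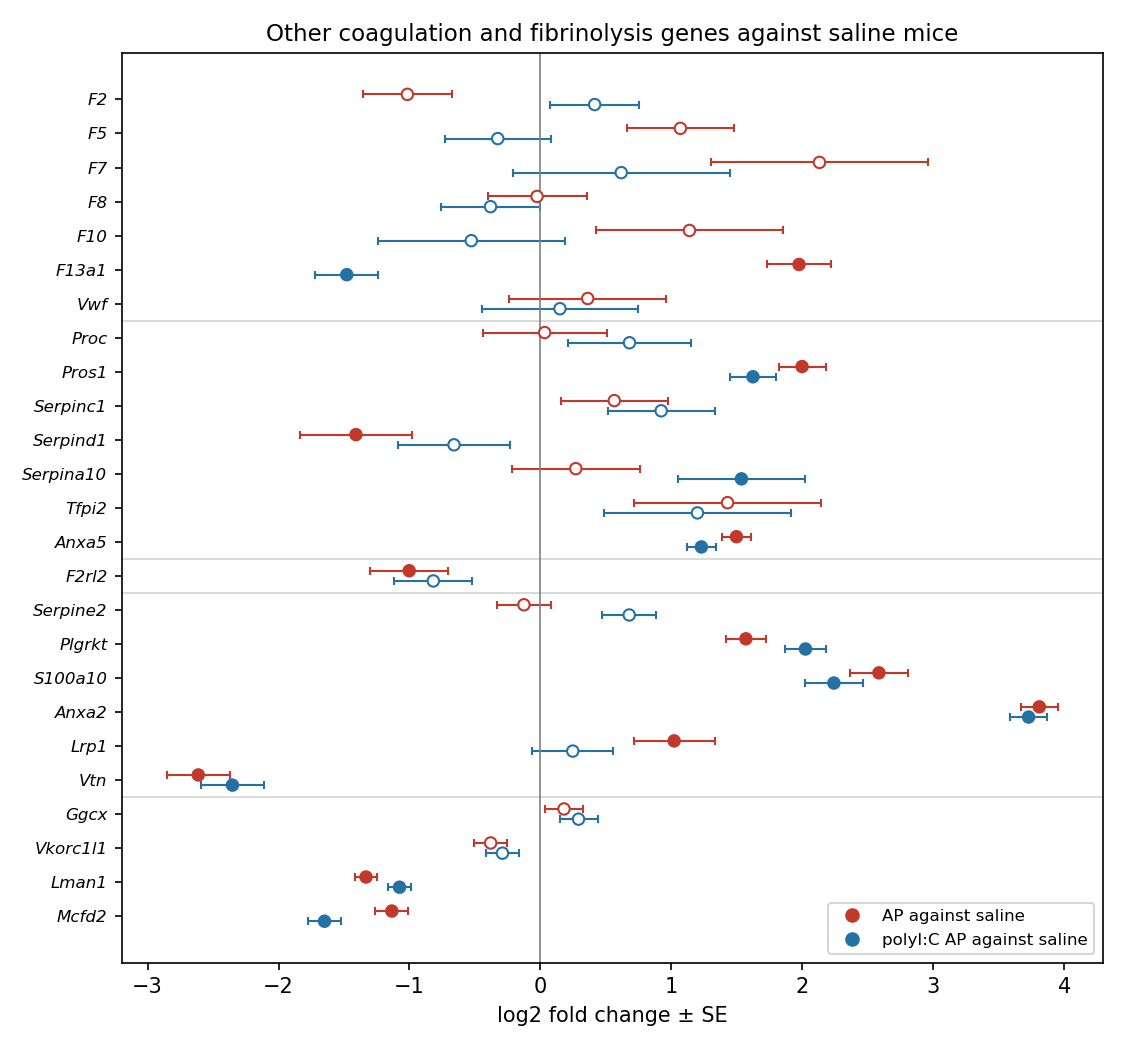
Log2 fold change with its standard error (x axis) of the 25 tested pathway genes outside the 9, in AP (red) and polyI:C AP (blue) against saline mice. Filled points are called, open points are not, and grey lines separate the lists (clotting factors, anticoagulants, a further receptor, plasminogen system, carboxylation and export). Anxa2 stands at 3.81 and 3.73 in these comparisons, while F13a1 lies at 1.98 and -1.48.

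Whole pancreas holds many cell types, and in bulk RNA fewer cells of a type and less RNA per cell cannot be told apart. Endothelial cells are the textbook site of Procr, Thbd, Tfpi and Plat. Of 10 endothelial markers, none was called in any comparison, and their summed level was 84.6 to 131 TPM in saline, 116 to 128 TPM in AP and 104 to 155 TPM in polyI:C AP mice, with Pecam1 at 17.9 to 29.2 TPM over all 6 mice and Esam at means of 12, 19.0 and 23.6 TPM in the same order of groups. Of 10 macrophage and monocyte markers, 7 were raised in AP against saline mice and 5 reduced with polyI:C against AP, and their summed level, most of it from Lyz2 in the saline and AP mice, was 364 to 532, 2322 to 2574 and 395 to 485 TPM. Among the 9 genes and the pathway lists, Procr, Plau and F13a1 were called raised in AP and reduced with polyI:C against AP. The polyI:C calls of these genes were lost in some alternative fits. Plaur and Plat, also called raised in AP, had log2 fold changes of -1.26 and -1.03 with polyI:C against AP, beside -1.23 for Procr, and were not called. Lyz2 averaged 376, 2004 and 161 TPM, while Cd14 averaged 14.8, 220 and 212 TPM and was not called between the caerulein-treated groups. Of 8 ductal markers, 6 were raised in AP and the same number in polyI:C AP against saline mice, and none was called with polyI:C against AP, with summed levels of 2226 to 2596, 31721 to 33636 and 22982 to 29888 TPM, most of it from Krt8 and Krt18. Procr, F2rl1 and Plat, and of the pathway lists Pros1, Anxa5, Plgrkt, Anxa2 and S100a10, were called raised in both groups against saline mice. Of these only Procr was called reduced with polyI:C against AP. A like pattern of calls does not place a gene in a cell type. Of 8 stromal markers, 5 were raised in AP and none was called with polyI:C against AP, with Dcn at means of 605, 367 and 435 TPM and Col3a1 at 52.1, 325 and 186 TPM. Of 7 measured neutrophil markers, 3 of 5 tested were raised in AP, and none was called with polyI:C against AP. Their summed levels were 5.15 to 16.6, 61.1 to 69.7 and 20.6 to 42.7 TPM, led by Retnlg and S100a9. Retnlg averaged 31.7 TPM in AP and 4.51 TPM in polyI:C AP mice, while S100a8 averaged 7.79 and 8.90 TPM. The defining neutrophil genes Ly6g and Mpo were not analysed here, and Elane was at 0 in all saline and AP mice. The summed level of 8 platelet markers was 15.6 to 35.0, 52.5 to 79.4 and 15.0 to 16.0 TPM, of which Pf4 alone made up 69.9 and 39.8 TPM in the AP mice and Itga2b 2.42 and 5.15 TPM. Of 5 tested platelet markers, 1 (Ppbp) was raised in AP, Gp1ba was lower in AP without overlap of the mice (log2 fold change -1.31, not called), and Gp1bb was at 0 in 5 of 6 mice. Of the acinar markers that define the labelled tissue, 4 of 13 were measured, all transcription factors and led by Bhlha15 and Rbpjl, with summed levels of 658 to 766, 274 to 320 and 591 to 605 TPM, and 2 were reduced in AP against saline mice and 2 raised with polyI:C against AP. No mesothelial marker (led by Msln and Gpm6a) and no lymphocyte marker (led by Cd79b and Cd79a) was called. The part of each cell type in the levels of the 9 genes was not tested.

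**Figure D4:**
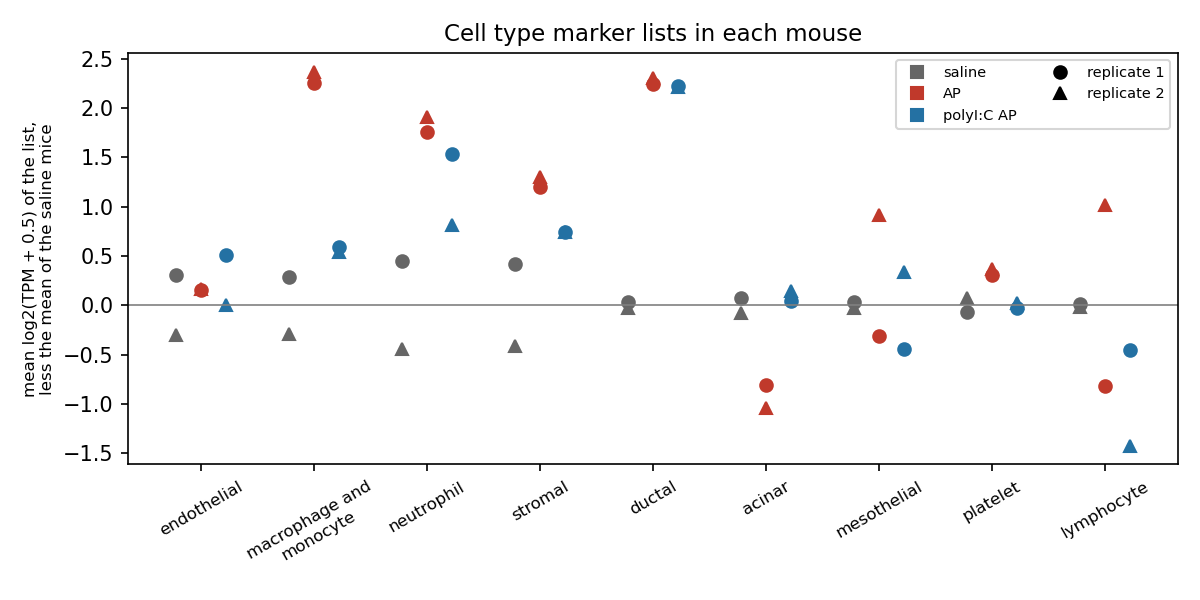
Mean log2(TPM + 0.5) of each cell type marker list, less the mean of the saline mice (y axis), for each mouse. Colours are groups, circles replicate 1 and triangles replicate 2. Endothelial markers stay near the saline level, macrophage markers stand highest in the AP mice at 2.25 and 2.37, ductal markers are high in all caerulein-treated mice, and AP replicate 2 stands above the other mice in mesothelial and lymphocyte markers.

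For each of the 9 genes, the nearest profiles were found among the tested genes averaging 10 TPM or more, by the distance between log2(TPM + 0.5) values centred on each gene's own mean over the 6 mice. Procr was nearest to Gm25193 (distance 0.71), which was listed at 0 in both saline mice, and to the defensin gene Defb1 (0.88), which went from 20.4 and 35.7 TPM in saline mice to 735 and 828 TPM in AP and 340 and 251 TPM with polyI:C. Plat was nearest to Tubb6 (0.51) and Tlr2 (0.54), and Plaur to Mfap5 (0.48) and Plekhn1 (0.61). Plau was nearest to Emb (0.40) and Gm4744 (0.50), and Tfpi to Gm4744 (0.30) and Mt1 (0.43). F2rl1 was nearest to AU020206 (0.24) and to the TGF-beta receptor gene Tgfbr2 (0.29), and F3 to Ctla2a (0.31) and Ap1m1 (0.40). F2r was nearest to Gm16071 (0.29) and to the uroplakin gene Upk1b (0.30), both of them high in AP replicate 2. Thbd was nearest to Gpr183 (0.27) and Rpl17-ps4 (0.30). A distance over 6 mice in 3 groups says only that 2 profiles look alike.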

How the data were processed

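RNA sequencing of whole pancreas from 6 mice was used, 1 table per mouse. Per the labels and the study's methods, the authors trimmed reads with Trimmomatic, aligned them to mm10 with STAR, counted them with htseq-count and tested raw counts with DESeq2. Tool versions and the strand setting are not given in the sources used here, and the labels name both a ribosomal depletion kit and a stranded mRNA kit. The deposited values are TPM, and the step from counts to TPM is not described. Within 0.1 of a read, 51.2 to 62.5% of low values (under 20 reads) were whole multiples of 1 read, against 19.4 to 20.6% of shuffled values, so read numbers are estimates and no count test was run. Genes were placed with GENCODE M21, which held 22490 of the 22556 identifiers.

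limma 3.58.1 in R 4.3.3 was fitted to log2(TPM + 0.5) over all 6 mice with 1 coefficient per group, for the 16814 genes that averaged 1 TPM or more, with a prior variance trended on estimated reads and Benjamini-Hochberg adjustment over all these genes. The code was tested on simulated data for AP against saline mice, where false calls took a larger share of all calls than the adjusted p threshold allows, so adjusted p-values just under 0.05 are weaker than they read. Genes were called at an adjusted p of at most 0.05 and at least 2-fold. Adjusted p-values weigh each difference against a variance pooled over the 3 groups and drawn toward a trend over all genes. They do not measure the spread within the groups compared, and the counting noise of low values is not fully held in them. The 2 mice per group share a sequencing lane by the labels. Values after ± are SDs of 2 mice. The 9 genes, the pathway and marker lists and the named genes were chosen with earlier results of these data known. From each pathway list, up to 3 genes with the largest rise and fall past the threshold were named per comparison, or the 2 most abundant where none passed, and from each marker list the 2 most abundant. Fga, Fgb, Fgg, F2rl3, Proc, Elane, Gp1bb, Gp1ba and Ppbp were named after their values were seen. Likeness was the Euclidean distance over 6 mice among genes averaging 10 TPM. F9, F12, F13b, Plg and Hrg were not analysed here, and 1 further gene is not reported here. Alternatives were 2 pseudocounts, 2 filters, 2 scalings, 2 priors, a replicate block, fits of only the groups compared, unadjusted p-values and leaving out each mouse. Figures were drawn with matplotlib 3.10.9.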

Additional observations from a re-analysis of the deposited data

How the results depend on the processing

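The AP calls of Procr, Plau, Plaur and Plat held in every alternative fit. With 2 mice per group, the smaller set of calls between polyI:C AP and AP mice depended most on the fit, and the cause was not tested. Over all genes it held 142 calls, 90 without a filter, 28 with a prior trended on the mean log2 value, 41 with one prior for all genes, 69 when only these groups were fitted, 728 at an unadjusted p, and 0 to 140 with a mouse left out (0 without AP replicate 1, AP replicate 2 or polyI:C AP replicate 2, and 66 without polyI:C AP replicate 1, of which 61 were raised and 5 reduced, against 74 and 68 with all mice). Its 2 calls among the 9 genes became 0 under both other priors and when only these groups were fitted, 4 at an unadjusted p, and 0 to 2 with a mouse left out. Its 1 call among the pathway lists became 0 with one prior, 4 at an unadjusted p, and 0 to 1 with a mouse left out.

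Between AP and saline mice, median-of-ratios scaling changed the 3053 raised and 677 reduced genes to 1565 and 1226, and scaling without the 15 genes above 1% of any library to 2169 and 881. Leaving out a mouse gave 2458 to 3756 calls over all genes (2458 without AP replicate 2), 4 to 6 among the 9 genes (4 without AP replicate 2) and 9 to 12 among the pathway lists. Tfpi could not be called under the filter of 5 TPM, which removed it. Between polyI:C AP and saline mice, 2838 raised and 500 reduced genes became 1326 and 985 under median-of-ratios scaling and 1848 and 712 without the most abundant genes. Among the 9 genes, 3 calls became 5 at an unadjusted p and 1 to 4 with a mouse left out (1 without polyI:C AP replicate 1), and F3 was called without polyI:C AP replicate 2 (log2 fold change 1.50).

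Signs turned for small differences. With polyI:C against AP, F3 (0.02) became -0.002 under median-of-ratios scaling, -0.012 without the most abundant genes, -0.11 without AP replicate 2 and -0.47 without polyI:C AP replicate 1 (range with a mouse left out -0.47 to 0.51), F2r became 0.25 without AP replicate 2 (range -0.84 to 0.25), Anxa2 0.10 without AP replicate 2 and 0.009 without polyI:C AP replicate 2 (range -0.26 to 0.10), and Vtn -0.006 and -0.019 without the same mice (range -0.019 to 0.54). Against saline mice, Thbd in polyI:C AP (-0.01) became 0.31 without saline replicate 1 and 0.12 without polyI:C AP replicate 1 (range -0.33 to 0.31), Plau (0.06) became -0.40 under median-of-ratios scaling, -0.19 without the most abundant genes and -0.16 without polyI:C AP replicate 1 (range -0.16 to 0.27), and Serpina10 in AP became -0.15 under median-of-ratios scaling and -0.36 without saline replicate 2 (range -0.36 to 0.90).

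Mice with the same replicate number shared no large common shift (their deviations from the group means correlated at 0.008, 0.035 and -0.004 between groups). This cannot show whether such mice were handled together. With the replicate block, the calls among the 9 genes numbered 6, 2 and 3 as without it, and 124 genes were called between polyI:C AP and AP mice. Pathway list calls went from 12 to 10 in AP and from 10 to 9 in polyI:C AP against saline mice, and the calls lost under the block were those of F2rl2 (limma adjusted p = 0.054), Serpind1 (0.059) and Serpina10 (0.060). A mouse left alone in its group was assumed to vary like the other groups. The alternatives for the named pathway genes were added after seeing the data.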
